A study of Ptychodera flava with 31 samples.

Results

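The 200 transcripts described here are the steadiest of the moderately expressed transcripts of the acorn worm Ptychodera flava over its life cycle. They were chosen by their measured levels. Levels were in TPM, the share of a library's transcripts that a model holds, times 1000000. They were averaged within each of 16 stages, models with a mean of 20 to 100 TPM over the stage means were taken, and the 200 with the lowest coefficient of variation (SD over mean, across the stage means) were kept. The level window held 5678 of 35854 transcript models, so that the 200 make up 3.52% of the window and 0.558% of all models.

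RNA of whole wild-type animals was sequenced at 16 stages in 31 libraries. The stages were the unfertilized egg, 7 embryonic stages (16-32 cell embryo, early and late blastula, early gastrula, mid gastrula before and after mesoderm migration, late gastrula), 6 stages of the planktonic tornaria larva (72 hours post fertilization, hpf, then Heider, Meschnikoff, Krohn, Spengel and Agassiz), the transforming larva and the adult. There was 1 library each for egg, transforming larva and adult, 11 stages had 2, and the early gastrula and the mid gastrula before migration had 3. The labels speak of biological replicates and name no parents or cultures, so the spread between libraries of a stage may be partly technical.

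Transcripts with a near-constant level across development are commonly sought as internal references, against which other transcripts are measured, and are often assumed to serve functions that every cell needs. Sequencing gives shares of a library and not molecules per cell: the level of one transcript depends on what the rest of the library holds, and a change in the amount of RNA per cell is not seen. In whole animals, a constant share may also be the sum of opposite changes in different tissues. The files name the models by assembly identifiers. Of these, 0 matched a reference list of 38920 genes, so that functions and sequences of the transcripts are not given.

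The 200 transcripts stayed within a narrow range from egg to adult, but they were not flat. Their coefficients of variation ran from 13.3% to 27.6% with a median of 24.3%, against a median of 67.9% in the 5478 other models of the window. The highest stage mean was 1.59 to 5.41 times the lowest (median 2.53), and the ratio was under 2 in 24 of the 200 and in 0 of the other 5478. Relative to their own means, 137 of the 200 stayed between 0.5 and 2 times the mean at every stage. These values are those of the choice itself and are given as a description.

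**Figure D1:**
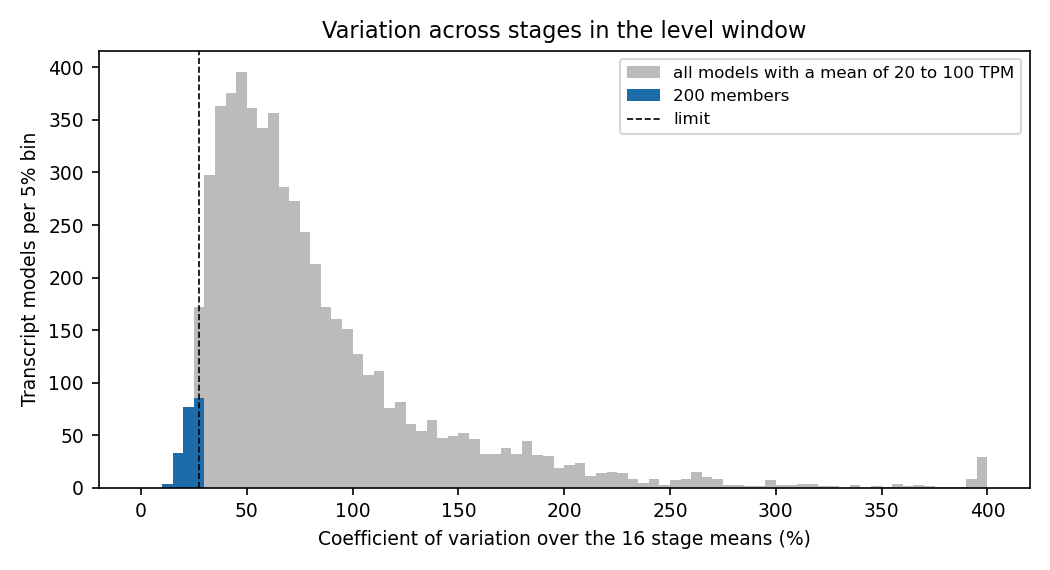
The coefficient of variation over the 16 stage means (x axis, percent) for all 5678 models with a mean of 20 to 100 TPM (grey) and for the 200 kept (blue), as models per 5% bin (y axis). The dashed line is the limit of 27.6%, and the median of the other models is 67.9%.

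The values pass through the limit without a gap. The last transcripts inside it were TCONS_00006323, TCONS_00030157, TCONS_00014276, TCONS_00002505 and TCONS_00026493, with coefficients of variation from 27.42% to 27.55%. The first outside were TCONS_00008912, TCONS_00008937, TCONS_00055275, TCONS_00047756 and TCONS_00045901, from 27.56% to 27.68%. Within 1 percentage point of the limit lay 44 transcripts below and 26 above. The level window cuts as closely: 14 of 540 models with a mean of 20 to 22 TPM and 11 of 578 with 18 to 20 TPM were at or under the limit, as were 5 of 194 with 90 to 100 TPM and 4 of 154 with 100 to 110 TPM. Among models of at least 1 TPM, 520 were at or under it, 272 of them below the window and 48 above it.

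The steadiest was TCONS_00004741, a model of 1494 bases with a mean of 36.0 ± 4.77 TPM (SD over 16 stages, 13.3%). It stood at 29.3 TPM in the egg library, and at 32.0 and 27.8 TPM in the libraries of the 16-32 cell stage. The blastula libraries gave 39.2 and 38.1 TPM (early) and 37.8 and 36.2 TPM (late). In the gastrula the values were 30.5, 35.3 and 30.7 TPM (early), 30.5, 43.0 and 29.7 TPM (mid, before migration), 40.0 and 42.0 TPM (mid, after migration) and 33.0 and 37.9 TPM (late). The larvae lay in the same range in TPM, where embryonic and larval libraries overlapped over nearly their whole extent. After TMM scaling (trimmed mean of M values, a scaling between libraries) they overlapped less. Embryos then stood at 29.6 to 54.5 (median 40.0), larvae at 21.9 to 37.2 (median 27.9) and the egg highest at 56.6. The tornaria at 72 hpf gave 27.6 and 27.4 TPM, Heider 37.0 and 29.2 TPM, Meschnikoff 29.2 and 38.5 TPM, Krohn 36.9 and 42.5 TPM, Spengel 40.4 and 39.0 TPM and Agassiz 38.6 and 44.6 TPM. The transforming larva stood at 43.7 TPM and the adult at 38.4 TPM. Libraries of 1 stage, such as those of the Heider and Meschnikoff stages, also differed. The within-stage SD of log2(TPM + 1) was 0.17 between single libraries. It was 0.19 across stage means, which average the libraries of a stage. Scatter between libraries, carried into the stage means, would give a coefficient of variation of 7.21%, beside the observed 13.3%.

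TCONS_00027474 (1032 bases) came next, at 24.7 ± 3.61 TPM (SD over 16 stages). It was at 20.8 TPM in the egg, 17.9 to 39.9 TPM (median 26.0) in the 16 embryonic libraries, 17.9 to 29.5 TPM (median 24.0) in the 12 larval libraries, 20.5 TPM in the transforming larva and 24.9 TPM in the adult. In TPM the larval range began at about the lowest embryonic value and ended below the highest. After TMM scaling embryos stood at 23.1 to 40.7 and larvae at 14.6 to 25.9. Its SD on the log2(TPM + 1) scale was 0.21 between single libraries of a stage and 0.21 across stage means, which average those libraries. Scatter between libraries, carried into the stage means, would give a coefficient of variation of 9.37%, beside the observed 14.6%.

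TCONS_00052926 (5517 bases) followed, at 86.4 ± 12.8 TPM (SD over 16 stages). It was at 97.7 TPM in the egg, 66.8 ± 4.86 TPM in the mid gastrula before migration (SD, n = 3), 109 ± 4.25 TPM at Spengel (SD, n = 2) and 70.1 TPM in the adult. With a median of 5056 counts per library, counting error alone would give it a coefficient of variation of 1.06%, beside the observed 14.8%. For TCONS_00027474, with a median of 228 counts, counting error alone would give 4.97%. The next 7 were TCONS_00028955, TCONS_00007714, TCONS_00026073, TCONS_00042950, TCONS_00049691, TCONS_00019301 and TCONS_00022974, at means of 23.0 to 68.1 TPM and coefficients of variation from 14.9% to 15.9%. Their extremes fell at different stages: TCONS_00028955 was highest at Heider and lowest in the egg, TCONS_00042950 highest in the transforming larva and lowest in the early blastula, and TCONS_00022974 highest in the egg and lowest in the early blastula. After TMM scaling, the coefficients of variation of these 10 were 15.2% to 40.5%, and 9 of them rose more than 1.5 times, TCONS_00004741 to 24.5%, TCONS_00027474 to 28.8% and TCONS_00052926 to 38.4%; TCONS_00028955 was at 15.2%.

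**Figure D2:**
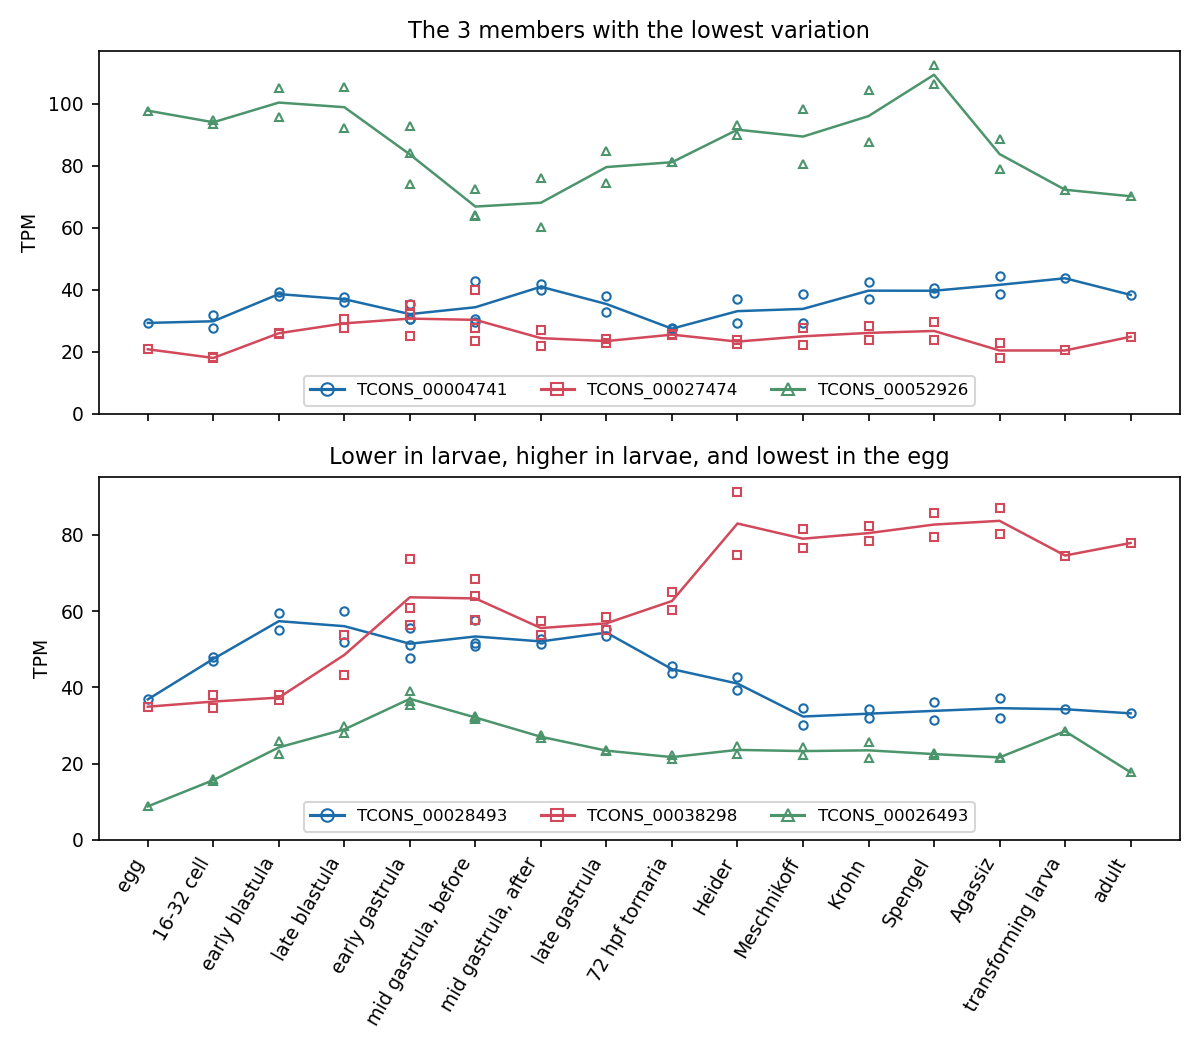
TPM (y axis) by stage (x axis) for 6 of the 200 transcripts. Each symbol is 1 library and each line joins the stage means. In the upper panel the stage means of the steadiest keep to 27.5 to 43.7 TPM and those of TCONS_00052926 to 66.8 to 109 TPM; in the lower panel TCONS_00028493 is lower in larvae, TCONS_00038298 higher, and TCONS_00026493 is lowest in the egg at 8.80 TPM.

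In TPM, the variation that remained was larger in the egg, the first stages and the adult than in between. The egg was the lowest stage for 87 of the 200 (43.5%, against 31.6% of the other models of the window) and the adult for 38 (19.0%, against 18.8%). The median transcript stood at 70.9% of its own mean in the egg and at 84.9% in the adult, and at 95.7% to 109% at the other 14 stages. After TMM scaling the place of the egg turned around. It was then the lowest stage for 9 of the 200 and the highest for 57, at a median of 133%. The adult was the lowest for 67, at a median of 71.4%. Egg and adult are 1 library each. In TPM, the egg and the adult together carried 29.2% of the squared deviations from the mean, averaged over the 200 (18.9% and 10.3%), and 18.8% in the other models. The 16-32 cell stage carried 11.1% and the early blastula 8.10%, and no stage from the late blastula to the transforming larva more than 6.95%. TCONS_00026493 is an example, at 8.80 TPM in the egg, 15.5 to 39.2 TPM (median 27.7) in the embryonic libraries, 21.1 to 25.6 TPM (median 22.3) in the larval ones and 17.7 TPM in the adult. In this transcript the egg lay below every other library in TPM. After TMM scaling it did not: the egg stood at 17.0, the larval libraries at 15.5 to 22.4 and the adult at 15.4. In the egg, the 100 most abundant models took 56.5% of TPM, against 22.8% to 48.1% in the other libraries; the part of this in the low egg values was not tested. At the stages after the egg, fewer cells of a type and less RNA per cell cannot be told apart in whole animals.

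The highest stage in TPM was more evenly placed. It was the 16-32 cell stage for 31 transcripts, the early gastrula for 23, the mid gastrula before migration for 20, and Heider and Spengel for 15 each. Meschnikoff was the highest for 2 and the late gastrula and the 72 hpf tornaria for 5 each. In all, 112 transcripts were highest at an embryonic and 56 at a larval stage, and 54 were lowest at an embryonic and 13 at a larval stage. These counts rest on the stage means that the rule used and describe the choice. Larval stages were closer together than embryonic ones, as in the rest of the window: the median coefficient of variation was 13.4% over the 6 larval and 21.8% over the 7 embryonic stages, and the embryonic value was the larger in 164 of the 200 (82.0%) and in 81.3% of the other models. From the mid gastrula before migration to the transforming larva, 154 to 184 of the 200 lay within 25% of their own mean at each stage, most at Meschnikoff and fewest in the mid gastrula. The number was 67 in the egg, 105 at the 16-32 cell stage and 111 in the adult.

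**Figure D3:**
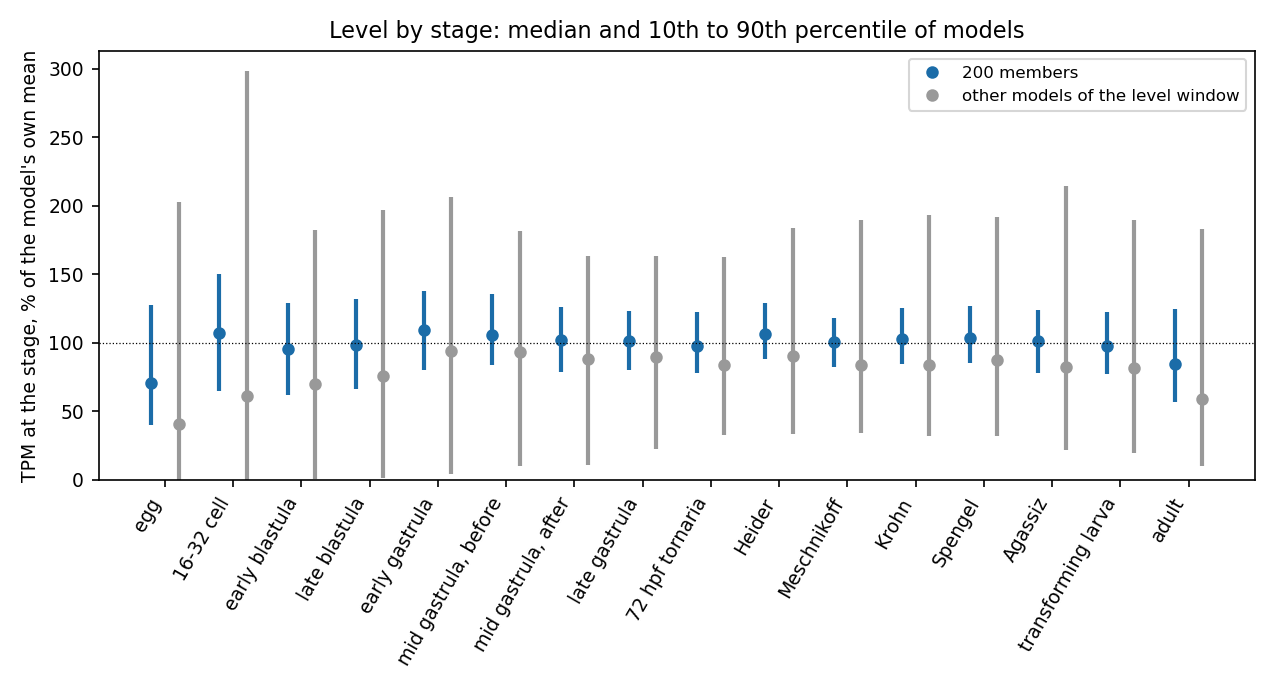
TPM at each stage (x axis) as a percent of each model's own mean over the 16 stages (y axis). Points are medians and bars run from the 10th to the 90th percentile of models. The 200 transcripts (blue) sit near 100% at all stages but the egg (70.9%) and the adult (84.9%), with wider bars before the gastrula; the other models of the window (grey) spread further at every stage.

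Summed over the 200, the steady transcripts held 0.785% to 0.931% of TPM in the 29 libraries other than the egg and the adult, 0.633% in the egg and 0.721% in the adult. The embryonic libraries held 0.864 ± 0.0455% (SD, n = 16) and the larval ones 0.854 ± 0.0316% (SD, n = 12). As a share of estimated counts, which weights long models more, the sum was 1.11% to 1.48% in the 31 libraries, with 1.11% in the egg and 1.17% in the adult. On this measure the egg and the adult lay inside the range of the larvae (1.11% to 1.25%).

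In length, which the choice did not use, the 200 were close to the window. They were 180 to 14282 bases long with a median of 1623, against 1550 in the other models. The fourth of the window with the longest models (3055 bases or more) contained 66 of them, which is 4.65% of its models, and the third quartile of length contained 35 (2.47%), so that there was no steady trend with length. By level they were spread evenly, with 46 to 54 in each quartile of mean TPM. The longest were TCONS_00014276 (14282 bases), TCONS_00056118 (12316) and TCONS_00048545 (8759), at 22.2, 20.8 and 20.3 TPM. The shortest were TCONS_00003643 (180 bases), TCONS_00009117 (291) and TCONS_00022973 (310), at 98.0, 41.7 and 57.9 TPM. TCONS_00003643 also had the highest mean of the 200, with 16 counts in its poorest library. The next highest means belonged to TCONS_00001097 (96.9 TPM) and TCONS_00010745 (96.5 TPM), and the lowest to TCONS_00043889, TCONS_00006196 and TCONS_00018655 (20.1, 20.2 and 20.2 TPM).

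The median transcript of the 200 had 602 counts per library, against 395 in the other models of the window. In at least 1 library, 31 of the 200 fell under 100 counts, as did 3028 of the other 5478 models. Counting error alone would give a median coefficient of variation of 3.05%, and the scatter between libraries of a stage, carried into the stage means, 7.82%. Both are well under the observed 24.3%. Over the 13 stages with at least 2 libraries, the coefficient of variation (median 20.5%) was more than 2 times the part from replicate scatter in 141 of the 200, and in 95.6% of the other models of the window. Reads were shared with other models, seen as fractional counts, in at least 1 library for 73 transcripts (36.5%, against 33.7% of the other models) and in all 31 libraries for 44 of the 200 and 13.4% of the other models, and the levels of these depend on how the reads were divided. For 5 pairs of the 200 the identifiers are consecutive, among them TCONS_00022973, TCONS_00022974 and TCONS_00022975; whether such models come from 1 locus is not given in the files, and they may not be independent.

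Libraries of the same stage also agreed more closely for these transcripts than for the rest of the window. The pooled within-stage SD of log2(TPM + 1) had a median of 0.17 (0.07 to 0.46) over the 200, 0.23 over the other models of the window and 0.26 over the 23273 models of at least 1 TPM. The median was lower than in the other models at 13 of 13 replicated stages, from 0.07 against 0.08 at the 16-32 cell stage to 0.12 against 0.22 at Heider. The biological coefficient of variation fitted by edgeR had a median of 0.14 over the 200 and 0.17 over the others. Deviations from the stage means did not enter the choice, but noisy models also have noisier stage means and were less likely to be chosen. Low counts were also more common in the other models, 3028 of 5478 of which fell under 100 counts in at least 1 library. Among the 200 there were 31 such transcripts. The part of this in the difference of spread was not tested. The smallest within-stage SD belonged to TCONS_00001097 (0.07), TCONS_00013458 (0.07) and TCONS_00026493 (0.08), and the largest to TCONS_00029118 (0.46), TCONS_00009117 (0.41) and TCONS_00015451 (0.41). TCONS_00001097 had close replicates and a level that moved, from 145 ± 3.27 TPM in the early blastula (SD, n = 2) to 63.7 TPM in the adult, a ratio of 2.28.

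In TPM, low variation over the replicated stages was seen again in libraries that had no part in the choice. These were replicates of the same stages, so that agreement between replicates alone would carry low variation over. When the same rule was applied to 1 library per stage, the lowest-numbered, the 200 models so chosen had a median coefficient of variation of 20.8% over the 13 replicated stages in those libraries and 23.9% in the highest-numbered libraries of the same stages. The other models of the window had 64.3% and 65.5%. In the unused libraries, 198 of the 200 were below the lower quartile of the window and 125 were again among its 200 lowest. With the roles of the libraries exchanged, the medians were 22.3% and 21.3%, and 132 were again among the 200 lowest. The lists from the 2 sets of libraries shared 145 models (72.5% of each), and 169 and 168 of them belonged to the 200 described here. The single libraries of egg, transforming larva and adult entered both choices and neither check.

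**Figure D4:**
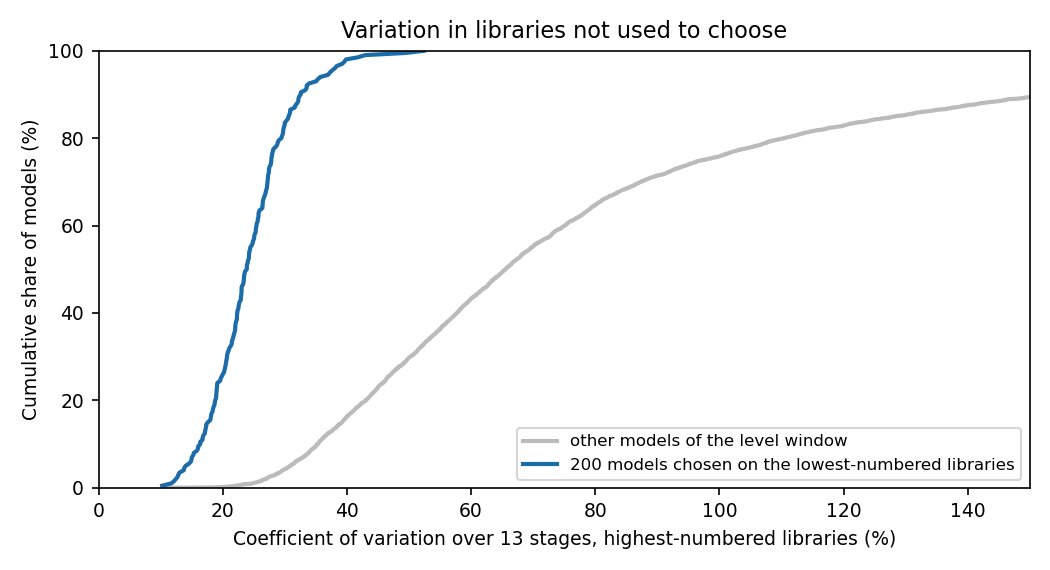
Cumulative share of models (y axis, percent) by coefficient of variation over 13 stages in the highest-numbered libraries (x axis, percent, drawn to 150%). The 200 models chosen on the lowest-numbered libraries (blue) have a median of 23.9%, and the other models of the window (grey) 65.5%.

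A test in the unused libraries compared the 6 larval with the 7 embryonic stages, each stage being 1 library. Calls needed edgeR's quasi-likelihood test at an adjusted p (Benjamini-Hochberg) under 0.05 and a change of at least 2-fold. Counts were scaled by TMM (trimmed mean of M values), which assumes that most models do not change. Of all 20656 models tested 37.5% were called, of the other models of the window 46.2%, and of the 200 chosen on the lowest-numbered libraries 13, all 13 of them lower in larvae. Only 3 of these 13, TCONS_00028493, TCONS_00012551 and TCONS_00020365, are among the 200 described here, with log2 fold changes of -1.04, -1.04 and -1.02 (edgeR adjusted p = 0.00361, 0.00597 and 0.00601); the other 10 are not among them. With the libraries exchanged, 41.2% of all models and 1 of the 200 were called. That transcript was TCONS_00048562, one of the 200 described here, at a log2 fold change of -1.03 (edgeR adjusted p = 0.0106). Without the 2-fold threshold 47 of the 200 were called (all models 40.0%) and 32 with the libraries exchanged (45.0%), again all of them lower in larvae after TMM scaling. The median absolute log2 fold change was 0.46 and 0.36 in the chosen models and 1.19 and 1.15 in the other models of the window.

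The shift of the whole set depended on the scale. With all 31 libraries in 1 fit, the 200 transcripts had a median log2 fold change of -0.49 in larvae over embryos, from -1.04 to 0.14, and 196 of them were below 0. The median over all 30661 models tested was 0.73 in the same fit. With DESeq2 size factors in place of TMM the medians were -0.23 and 0.96, and on the TPM scale (log2(TPM + 0.1)) they were -0.0017 and 0.87. The distance of the 200 from all models was therefore -1.22, -1.19 and -0.87, and -0.40 with a pseudocount of 1 in place of 0.1. Among models of their own level the 200 did not stand out in the median size of this fall. After TMM scaling the median log2 ratio of larval to embryonic means was -0.50 in the 200 and -0.62 in the other models of the window. In direction the 200 were more uniform: 196 were lower and 4 higher in larvae, against 3445 and 2033 of the other 5478 models. For the 200, whose stage means were used by the rule, this is a description. On the TPM scale 94 of the 200 had the higher mean in larvae and 106 in embryos, and after TMM scaling 4 and 196. The steady share of TPM and the relative fall after TMM scaling are the same data: the factors that convert the one into the other averaged 0.884 ± 0.107 in the embryonic libraries (SD, n = 16), 1.23 ± 0.133 in the larval ones (SD, n = 12) and 0.519 in the egg.

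Seen on the TMM scale, the 200 transcripts declined through development. Their median went from 133% of their own mean in the egg and 139% at the 16-32 cell stage to 106% in the mid gastrula before migration, 94.0% in the 72 hpf tornaria, 72.7% at Spengel and 71.4% in the adult. The other models of the window fell too from the gastrula on, from 95.2% in the early gastrula to 79.6% in the 72 hpf tornaria, 61.1% at Spengel and 50.0% in the adult. The median coefficient of variation of the 200 was 31.8% on this scale, and 73 of them were among the 200 steadiest when the rule was applied to it. The label of steadiest transcripts therefore belongs to the TPM scale, and with the other scale it would go mostly to other models. Which scale follows the number of molecules per animal or per cell cannot be told from these files.

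**Figure D5:**
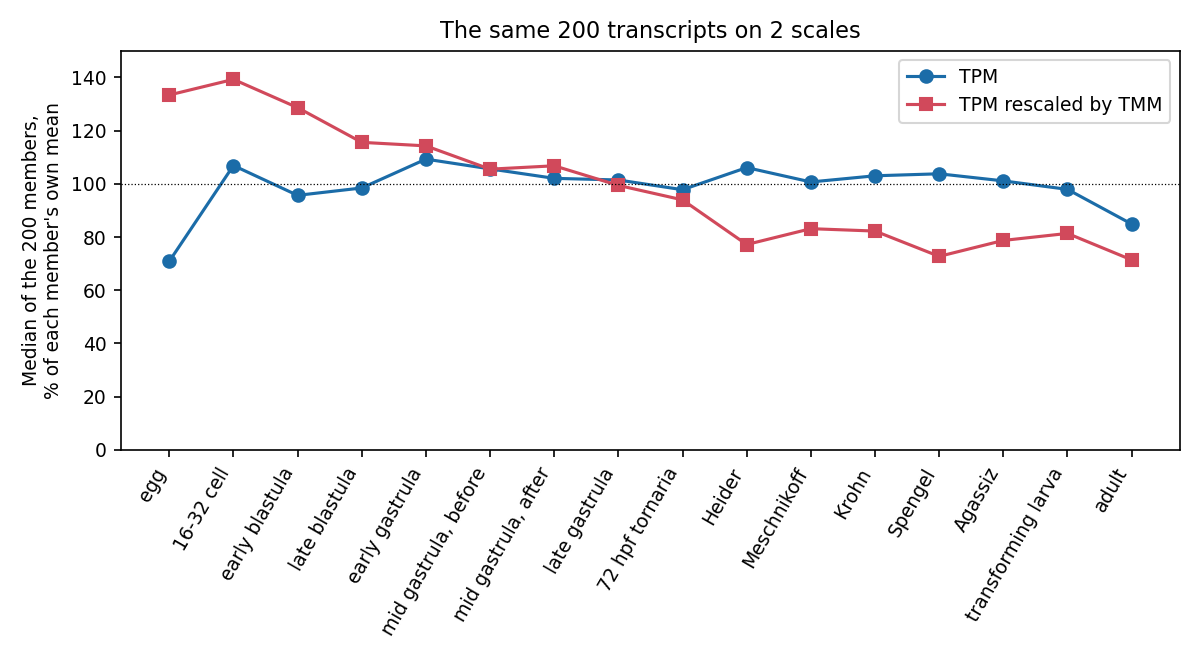
Median over the 200 transcripts of the level at each stage, as a percent of each transcript's own mean over the stages (y axis), by stage (x axis), for TPM (blue circles) and for TPM rescaled by TMM (red squares). The first stays near 100% apart from 70.9% in the egg and 84.9% in the adult; the second falls from 139% at the 16-32 cell stage to 72.7% at Spengel and 71.4% in the adult.

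Larval and embryonic libraries overlapped for nearly every one of the 200 on the TPM scale. The exception was TCONS_00028493 (1149 bases), at 47.0 to 60.1 TPM (median 52.3) in the 16 embryonic libraries and 30.2 to 45.7 TPM (median 35.4) in the 12 larval ones. Every larval library lay below every embryonic library, and the egg, transforming larva and adult, at 36.9, 34.3 and 33.2 TPM, lay with the larvae. In larvae over embryos it fell by 1.04 on the log2 scale after TMM scaling (SE 0.06, edgeR adjusted p = 8.54e-13). Of the other 5478 models of the window, 372 were higher and 396 lower in every larval library than in every embryonic one. After TMM scaling, 11 of the 200 were lower in every larval library than in every embryonic one and 0 higher, and of the other models 758 and 250. For the 200, whose stage means were used by the rule, this is a description.

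In the same fit 5 of the 200 were called in larvae over embryos, where 53.3% of all models were, 37.3% higher and 16.1% lower. All 5 were lower in larvae: TCONS_00028493, TCONS_00020365, TCONS_00010398, TCONS_00048562 and TCONS_00012551, with log2 fold changes of -1.04 to -1.02, just past the threshold of 1. With DESeq2 size factors, by the DESeq2 Wald test or on the TPM scale 0 of the 200 were called. The count was also 0 without any 1 of 9 embryonic libraries (both of the 16-32 cell stage and of the early blastula, replicate 2 of the late blastula, all 3 of the early gastrula, and replicate 2 of the mid gastrula before migration). It was 1 without replicate 1 of the late blastula, and 3 without replicate 1 of Heider or of Spengel. The adjusted p alone, with no fold threshold, called 178 of the 200 and 73.5% of all models. Since the rule used these stage means, the counts describe the choice. TCONS_00020365 was at 35.9 to 73.9 TPM (median 61.7) in embryos and 25.7 to 59.0 TPM (median 39.2) in larvae. The ranges overlapped.

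The transcripts with the largest relative rise were nearly flat after TMM scaling. They are the extremes of a contrast whose stage means the rule used, so that their p-values are a description. The median over all models in the same fit was 0.73. TCONS_00038298 rose by 0.14 on the log2 scale (SE 0.05, edgeR adjusted p = 0.0296). In TPM it was at 34.9 in the egg, 34.6 to 73.7 (median 55.8) in embryos, 60.2 to 91.1 (median 79.9) in larvae and 77.9 in the adult, and the ranges overlapped. Rescaled by TMM the same libraries gave 67.4, 48.4 to 75.5 (median 60.1), 55.5 to 72.2 (median 64.6) and 67.8. TCONS_00026768 had 0.14 (SE 0.05, edgeR adjusted p = 0.0312), going from a median of 21.8 TPM in embryos to 33.2 TPM in larvae. TCONS_00044702 had 0.09 and did not pass (SE 0.11, edgeR adjusted p = 0.511), at medians of 72.0 and 104 TPM.

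Of the 14 steps between consecutive stages that were tested, the first 4, up to the early gastrula, held the calls past 2-fold. The step from the transforming larva to the adult, with 1 library each, was not tested. In TPM 13 of the 200 were at least 2-fold lower in the adult and 1 at least 2-fold higher. These counts were made for the 200 only. As a percent of each model's own mean, the median of the 200 went from 97.9% to 84.9% at this step. The median of the other models of the window went from 81.6% to 59.2%, so that the fall was not particular to the 200. Of the 200, 28 were called from the egg to the 16-32 cell stage (15 higher and 13 lower), where 12.3% of all models were called. At the next step, into the early blastula, 15 were called (4 higher and 11 lower), against 31.1% of all models. From the early to the late blastula 9 were called, each of them lower (12.8%), and from the late blastula to the early gastrula 2 (8.87%). The latter were TCONS_00011069, at 15.2 ± 0.219 TPM (SD, n = 2) and then 50.3 ± 16.4 TPM (SD, n = 3), with a log2 fold change of 1.52 (edgeR adjusted p = 0.000264), and TCONS_00004702, at 40.2 ± 11.8 and then 22.8 ± 9.76 TPM, with -1.02 (edgeR adjusted p = 0.0285). The call of TCONS_00004702 was lost without replicate 2 of the late blastula (-0.71, edgeR adjusted p = 0.310), without replicate 3 of the early gastrula (-0.74, edgeR adjusted p = 0.0795) and with the replicate number as a block (-0.88, under 2-fold). At the other 10 transitions 0 of the 200 were called by edgeR or by the DESeq2 Wald test, where edgeR called 0.359% to 16.6% of all models; at an unadjusted p under 0.05 there were 9 to 66 per transition. Of all models, edgeR called 9.38% between early gastrula and mid gastrula before migration, 2.95% to the mid gastrula after migration, 1.56% to the late gastrula and 3.89% to the 72 hpf tornaria. The steps through the larva gave 14.8% into Heider, 3.79% into Meschnikoff, 1.45% into Krohn, 0.359% into Spengel, 16.6% into Agassiz and 2.36% into the transforming larva. In all, 49 of the 200 were called at 1 or more of the 14 tested transitions, and 64.0% of all models. By the adjusted p alone these were 155 of the 200 and 69.7% of all models. The rule used these stage means, so that the counts describe the choice and nothing is read from them.

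In a test over all stages at once, added after the data had been seen, 192 of the 200 passed at an edgeR adjusted p under 0.05, and 93.9% of all models. The share is near that of all models and rests on the stage means that the rule used, so that nothing is read from it. The 8 that did not pass were TCONS_00022975, TCONS_00003643, TCONS_00029118, TCONS_00009117, TCONS_00038298, TCONS_00010091, TCONS_00044702 and TCONS_00056935, with adjusted p from 0.0562 to 0.350. Of these, 6 were models of 609 bases or less, and 4 fell below 100 counts in at least 1 library, as did 31 of the 200.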

How the data were processed

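The members and their descriptions were chosen with earlier results of these data known. Per the labels' protocols, libraries were stranded and polyA-selected (TruSeq), from RNA isolated with an RNeasy Micro kit. The deposited files give, per library and transcript model, estimated counts (expected counts, fractional where reads are shared) and the length of the model. The deposited files also give TPM, scaled by the authors for effective length. kallisto and edgeR are named in the submitters' processing notes; the sources used here do not give their versions, the genome build or the origin of the models. Totals of estimated counts were 11539946 to 17288661 per library. The 17 within-stage pairs of libraries each differed beyond counting noise (chi-square over degrees of freedom 4.57 to 88.3).

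For tests, counts were rounded and fitted with edgeR 4.0.16 under R 4.3.3, with limma 3.58.1 and DESeq2 1.42.0 as alternatives: filterByExpr by stage (30661 models kept, all 200 members among them), TMM scaling (factors 0.604 to 1.34), a trended dispersion, 1 coefficient per stage and 15 residual degrees of freedom. Stages with 1 library were assumed to vary like the others. Fits that left out a library kept the models and the dispersion trend of the full fit. TPM rescaled by TMM is TPM divided by a factor per library that brings it to the TMM scale. A count was taken as fractional when more than 0.001 from a whole number. On simulated counts for larva over embryo (30661 models), 100% of 2-fold changes passed the adjusted p alone, and 6.98% of the models passing were false. In the test with 13 libraries (20656 models) these were 91% and 3.54%. The simulation did not apply the 2-fold threshold of the calls, and unlike the data it left most models flat. It therefore does not give the error of the calls. Transcripts are named by fixed rules: the 10 lowest coefficients of variation, 5 on either side of the limit, and the 3 most extreme in mean, within-stage SD, length and larva over embryo. TCONS_00012551, TCONS_00048562, TCONS_00011069, TCONS_00004702, TCONS_00010091, TCONS_00056935 and TCONS_00022975 were named after their values were seen. Python 3.11.15, numpy 2.4.6 and pandas 2.3.3 were used.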

Additional observations from a re-analysis of the deposited data

How the results depend on the processing

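Membership depended on the scale and on the level window. Of the 200, 73 were kept with TMM-scaled TPM, 132 with the ratio of the highest to the lowest stage, 112 with a window of 10 to 200 TPM, 111 with 30 to 80 TPM (111 members lie in that window) and 84 with no window above 1 TPM. Other settings kept 151 to 174, and leaving out single libraries kept 189 to 197; 148 were kept in each of the latter. The number called larva over embryo went from 5 to 178 with the adjusted p alone and to 0 with DESeq2 size factors, the DESeq2 Wald test and limma on log2(TPM + 1) or log2(TPM + 0.1); without single libraries it was 0 to 6, since these transcripts lie at the 2-fold threshold. The number called in the unused libraries went from 13 to 1 with the libraries exchanged, 6 with DESeq2 size factors and 47 with the adjusted p alone. Calls between consecutive stages went from 49 to 155 with the adjusted p alone and were 46 to 55 without single libraries. The median within-stage SD was 0.16 to 0.17 without single libraries, and members differing over all stages numbered 186 to 193. With the replicate number as a block, 48 were called between consecutive stages, 5 larva over embryo and 195 over all stages. The mid gastrula libraries after migration are numbered 2 and 3 in their titles and 1 and 2 in the names of their files; with the latter, tried after seeing the data, these were 47, 6 and 195. Of 147 pairs of libraries with the same number, 29 had deviations correlated over 0.1 (median r 0.01), and 20 of 214 pairs with other numbers (median r -0.01); 20 of 28 libraries were closest to one of their own number. This is a hint of shared deviation in some pairs, but not in every pair, and the numbers are not taken to pair libraries. The larva over embryo changes checked were those of the 3 largest rises and 3 largest falls. From the late blastula to the early gastrula they were those of the 2 transcripts called there. Of these log2 fold changes 0 reversed and 51 crossed the call threshold (241 did not). Of the coefficients of variation of the 10 steadiest, 9 moved (21 did not), each with TMM. Over the 200, directions did depend on the scale: 94 had the higher mean in larvae in TPM and 4 after TMM scaling.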
